A study of Mus musculus with 27 samples.

Results

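Bone marrow-derived macrophages (BMDM) are mouse marrow cells that M-CSF, a growth factor, has turned into macrophages in culture. The report covers the BMDM given the plant and algal sterol 24(S)-saringosterol and the BMDM given its ethanol vehicle, which are 6 of the 27 libraries of the series. They were chosen by label: 3 libraries are labelled saringosterol and BMDM, and 3 are labelled vehicle and BMDM. Saringosterol was given at 10 µM for 24 h. All 6 cultures had been differentiated for 6 days with M-CSF at 25 ng per ml, and all were treated in a serum-free DMEM/F12-based medium that held M-CSF at the same concentration, insulin, transferrin, selenite and albumin freed of fatty acids. Another 3 BMDM libraries, which had 1 µM of a synthetic compound called GW here (the labels spell it GW3596, GW3964 and GW3965, the last being the usual name of a drug-like activator of the liver X receptors), share the spread estimate of the test. The labels name the cell type and the treatment but no strain, age or sex, and they do not say whether replicates came from separate animals or separate cultures. The p-values therefore measure only the spread between these libraries, which may be technical.

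The liver X receptors (LXR) are nuclear receptors that bind oxidised and side-chain modified sterols and switch on genes that move cholesterol out of the cell, among them the transporters Abca1 and Abcg1 and the apolipoprotein Apoe. They also switch on Srebf1, whose product drives fatty acid synthesis. Cholesterol synthesis is set by another factor, encoded by Srebf2, which is held in the endoplasmic reticulum when sterols are plentiful and otherwise moves to the nucleus to switch on the enzymes of the pathway. In macrophages both systems meet interferon, interleukin-1 and antigen presentation genes, which are described here after the sterol genes.

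The 6 libraries held between 32203386 and 40878942 counts, so that 3 counts, the floor used here for a listed 0, correspond to between 0.073 and 0.093 CPM, the unit of counts scaled to equal library totals. Levels of single genes are CPM on totals scaled further by TMM, which differ from the deposited CPM by -2.21% to 2.44% over the 9 BMDM libraries, and sums over gene lists are on the deposited scale. Such floors cover counting error only. Saringosterol replicate 3 stood apart from replicates 1 and 2. Of 9578 genes at 5 CPM or more, 142 were at least 2-fold higher in replicate 3 than in the mean of replicates 1 and 2 and 5 were at least 2-fold lower (with 0.5 CPM added to each value), whereas each vehicle library had 1 to 3 such genes in either direction. Replicates 1 and 2 had 45 and 31 genes at least 2-fold under the mean of their other 2 libraries. A chi-square statistic per degree of freedom was 33.5 and 32.3 for the pairs of saringosterol libraries with replicate 3, 6.84 for replicates 1 and 2, and 6.05 to 11.5 between vehicle libraries. On the second principal component of the 9 BMDM libraries, which carried 19.7% of the variance, replicate 3 lay at -44.4 and the other 8 libraries between -17.8 and 19.1. Counts over all genes, and most counts over gene lists, are therefore given also without replicate 3 where they differ. Genes named by rule that lost their call without it are pointed out. Changes in size without it are given for part of the called genes only.

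The cells carried macrophage markers at high levels. Lyz2, which encodes lysozyme, stood at 15500, 15600 and 16400 CPM with saringosterol, against 21000, 20500 and 22300 CPM with vehicle. The 10 macrophage markers summed to 21700 to 23400 CPM with saringosterol and 27500 to 29300 CPM with vehicle, so that the sums did not overlap. Of these 10 markers, Lyz2, Csf1r and Itgam were called lower (log2 changes of -0.42, -0.45 and -0.61) and 1 was called higher; without replicate 3, 6 were called lower and 1 higher. Markers of hepatocytes summed to at most 0.0784 CPM in these 6 libraries and erythroid markers to at most 1.05 CPM. Of 14 marker lists, 8 had lower sums with saringosterol in every library, 1 had higher sums and 5 overlapped. Besides the macrophage markers, the lower ones included monocyte markers at 23 to 34.8 CPM with saringosterol and 40.5 to 47.7 CPM with vehicle, and neutrophil markers at 57.2 to 73.3 CPM with saringosterol and 77.7 to 87.3 CPM with vehicle. Osteoclast markers summed to 257 to 272 CPM with saringosterol and 329 to 348 CPM with vehicle, and fibroblast and stromal markers to 1.61 to 2.79 CPM with saringosterol and 4.21 to 5.06 CPM with vehicle. The sums do not stand for every member. Of 5 osteoclast markers tested, 2 were called lower and none higher, with a median log2 change of 0.02 (-0.81 without replicate 3). Lower calls numbered 1 of 6 tested monocyte markers, none of 8 neutrophil markers and 2 of 5 fibroblast and stromal markers, and none of these was called higher. The astrocyte, B cell and dendritic cell lists complete the 8. Endothelial markers went the other way, at 1.72 to 4.43 CPM with saringosterol and 0.74 to 1.52 CPM with vehicle. The part of these shifts in the results below was not tested. Because these are bulk cultures, fewer cells of a type and less RNA per cell cannot be told apart.

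Saringosterol changed about 1 in 10 genes, most of them by less than 2-fold. Of 15416 genes tested with edgeR's quasi-likelihood test, 853 were called higher (5.53%) and 790 lower (5.12%) than in vehicle-treated BMDM at a Benjamini-Hochberg adjusted p under 0.05. At least 2-fold changes were seen in 55 of the higher and 120 of the lower genes. Without replicate 3, 15873 genes were tested, of which 707 were called higher (4.45%) and 956 lower (6.02%). In all, 1220 genes were called in the same direction both ways, 610 in each direction, and none in opposite directions. The call rested on the inclusion of replicate 3 for 423 genes and on its omission for 441. The counts also rested on the vehicle libraries: without vehicle replicate 2, 403 genes were called higher and 443 lower, and without vehicle replicate 1, 510 and 498. The median log2 change over all genes tested was -0.01 with and without replicate 3. The shares of all genes called higher and lower apply beside every list count below, and a single call in a short list is near them.

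The LXR genes of sterol efflux rose. Of 16 tested members of the list of efflux and lipoprotein genes driven by LXR, 12 were called higher and none lower, with a median log2 change of 0.65; without replicate 3 the counts were 13 and 1 and the median 0.66. Among all genes, 5.53% were called higher. Apoc2, the remaining member of the 17, was too low to be tested. The 4 tested members not called were Apoc4, Lpl, Smpdl3a and Tspo, and Tspo was the member called lower without replicate 3 (log2 change of -0.29).

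Abca1 (ENSMUSG00000015243, chromosome 4 from 53030787 to 53159895 on GRCm38), which lipidates apolipoprotein A1, had 1580, 1640 and 1500 CPM with saringosterol, against 494, 563 and 591 CPM with vehicle. Every saringosterol library lay above every vehicle library, and the log2 change was 1.52 ± 0.07 (SE; edgeR adjusted p = 1.6e-10). Abcg1 (chromosome 17), which passes cholesterol to HDL, had 777, 710 and 747 CPM with saringosterol, against 393, 396 and 376 CPM with vehicle. Its groups did not overlap either (log2 change of 0.94 ± 0.06, adjusted p = 1.6e-09). Apoe, the carrier protein that macrophages secrete in large amounts, was at 20100, 21100 and 18300 CPM with saringosterol and 14700, 15800 and 15800 CPM with vehicle (log2 change of 0.36, adjusted p = 0.0013). On the deposited TPM scale, which corrects for gene length, Apoe stood at 25600 to 29400 TPM with saringosterol and Abca1 at 434 to 471 TPM, so that the gene with the smaller change had the higher level.

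Other members of the list have roles beyond efflux. Cd5l, a secreted protein of tissue macrophages, had 289, 307 and 377 CPM with saringosterol and 96.0, 102 and 109 CPM with vehicle, and had the largest log2 change of the list (1.67 ± 0.09, adjusted p = 4.5e-08). Mylip, a ubiquitin ligase of lipoprotein uptake, lay at 144, 144 and 138 CPM with saringosterol, against 76.0, 76.4 and 76.7 CPM with vehicle. Both groups were tight and lay far apart, and the log2 change was 0.90 (adjusted p = 1.6e-09). Nr1h3, the gene of LXR alpha itself, was at 151, 154 and 111 CPM with saringosterol and 107, 97.6 and 106 CPM with vehicle. Replicates 1 and 2 lay well above vehicle and replicate 3 just above it. The log2 change of Nr1h3 was 0.42 (adjusted p = 0.039) and 0.55 without replicate 3 (adjusted p = 3.7e-07). With any of the other 8 libraries left out, its log2 change lay between 0.34 and 0.45 and missed the threshold, with adjusted p-values between 0.054 and 0.13.

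**Figure D1:**
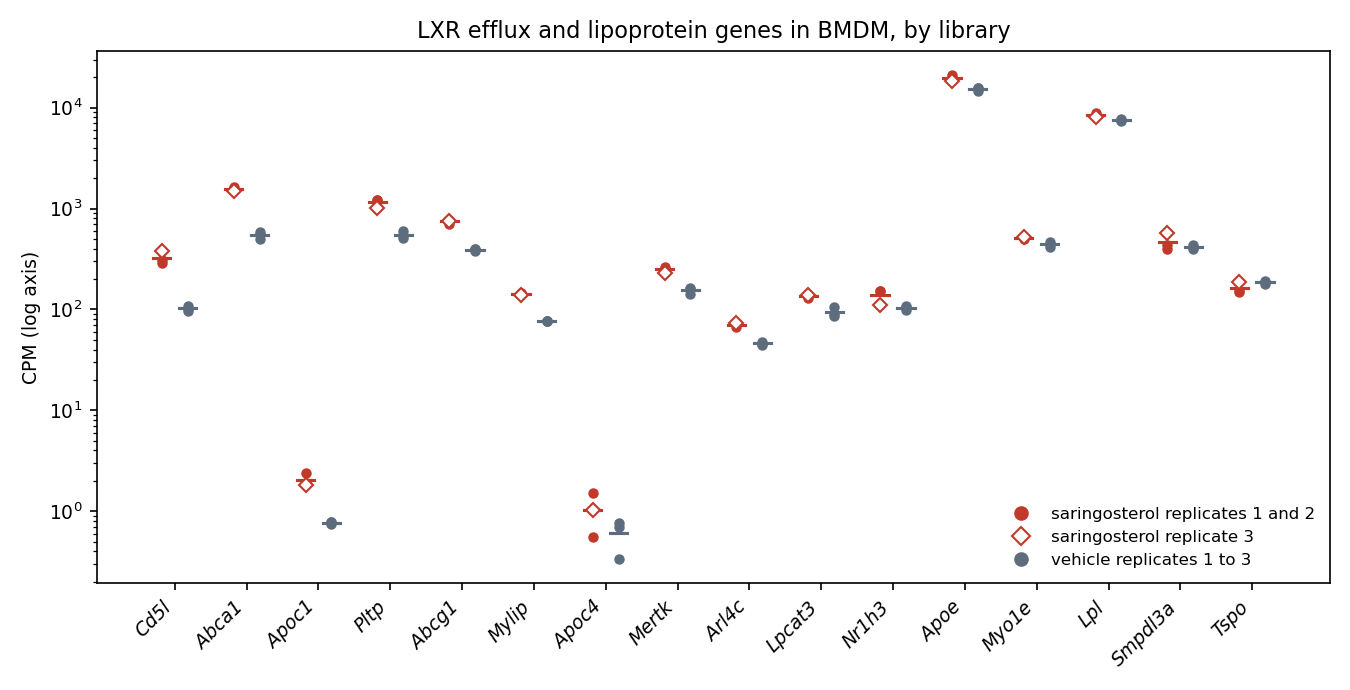
CPM (log axis) of the 16 tested LXR efflux and lipoprotein genes in each BMDM library, ordered by log2 change from left to right. Circles are saringosterol replicates 1 and 2 (red) and vehicle replicates 1 to 3 (grey), the open diamond is saringosterol replicate 3, and bars are group means; Abca1 sits at 1500 to 1640 CPM with saringosterol and at 494 to 591 CPM with vehicle.

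Transcripts of the cholesterol synthesis enzymes fell along the whole pathway. Of 20 enzymes tested, 19 were called lower and none higher, with a median log2 change of -1.16; without replicate 3 all 20 were called lower and the median was -1.34. Among all genes, 5.12% were called lower with all libraries. The 1 enzyme not called with all libraries was Acat2, the cytosolic thiolase, at 12.4, 12 and 21.9 CPM with saringosterol and 27.5, 24.0 and 27.8 CPM with vehicle (adjusted p = 0.077). Leaving out 1 library at a time left 15 to 20 enzymes called lower.

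Hmgcs1 (ENSMUSG00000093930, chromosome 13 from 119690379 to 119708260), which makes HMG-CoA, had 124, 119 and 141 CPM with saringosterol, against 302, 283 and 287 CPM with vehicle (log2 change of -1.18 ± 0.07, adjusted p = 9.6e-10). All of its saringosterol values lay under all of its vehicle values. Fdft1, the squalene synthase that commits the pathway to sterols, was at 7.71, 7.17 and 9.68 CPM with saringosterol, against 26.5, 24.5 and 30.1 CPM with vehicle (log2 change of -1.72, adjusted p = 1.9e-07). Among the late steps, Tm7sf2 and Hsd17b7 had log2 changes of -1.23 and -1.37.

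Every saringosterol library lay under every vehicle library for all 20 enzymes, as it did for 13.4% of all genes tested. Replicate 3 was the highest of the 3 saringosterol libraries for all 20, and for 35.5% of all genes. The 20 enzymes summed to 503, 519 and 676 CPM in saringosterol replicates 1, 2 and 3, against 1240, 1130 and 1220 CPM in vehicle replicates 1, 2 and 3. The median log2 distance of the enzymes from the vehicle mean was -1.26, -1.28 and -0.74 in the 3 saringosterol libraries.

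The start regions of these genes are shown because the enzymes moved together. They are RefSeq sequences of GRCm38.p6 on the gene's own strand, and the windows searched reach from 250 bases before to 50 bases after each gene's start. The motifs searched on both strands were TCACNCCAC, the core of a sterol response element, and CCAAT, the box bound by the factor NF-Y. Of 15 enzymes with a matched window, 1 held TCACNCCAC (6.67%) and 14 held CCAAT (93.3%), beside 1.44% and 41.1% of 27025 genes with windows. A gene counted if any of its windows held the motif. The shares describe letters in these windows, not bound sites. Capitals mark the motif, which reads ATTGG where the CCAAT box is on the other strand. The lines give the enzyme with TCACNCCAC (Hmgcs1, chr13:119690188-119690247, plus strand). Of its several CCAAT boxes, some of them nearer the start than TCACNCCAC, the box farthest upstream is shown (chr13:119690101-119690160). The other lines give a box each of Cyp51 (chr5:4104698-4104757, minus strand), Dhcr7 (chr7:143830101-143830160, plus strand) and Sc5d (chr9:42264301-42264360, minus strand), which act from lanosterol onward.
Hmgcs1, sterol element: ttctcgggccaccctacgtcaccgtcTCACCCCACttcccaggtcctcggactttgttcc
Hmgcs1, CCAAT box: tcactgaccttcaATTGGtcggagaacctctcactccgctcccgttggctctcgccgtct
Cyp51: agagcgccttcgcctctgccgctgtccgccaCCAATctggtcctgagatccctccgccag
Dhcr7: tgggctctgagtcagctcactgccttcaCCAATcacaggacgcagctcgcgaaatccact
Sc5d: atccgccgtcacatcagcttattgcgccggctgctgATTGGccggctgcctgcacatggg

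**Figure D2:**
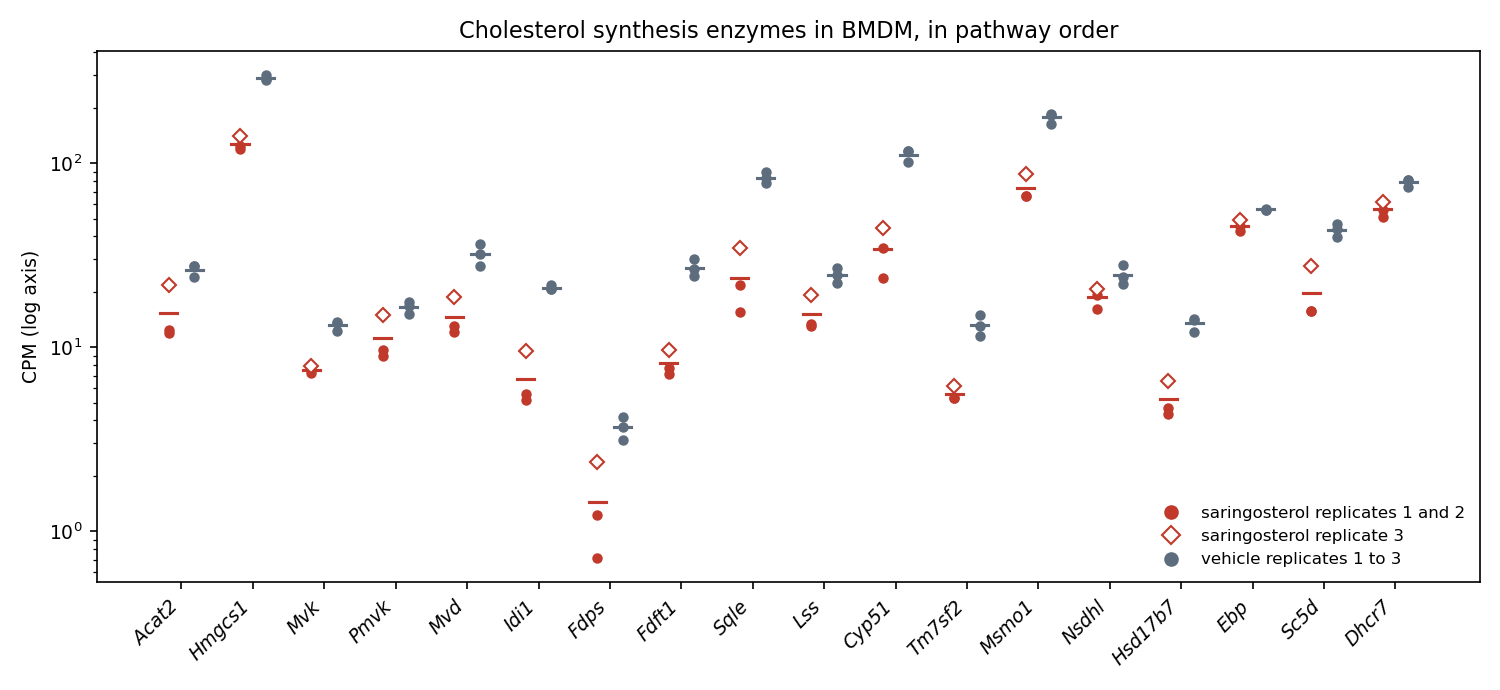
CPM (log axis) of 18 of the 20 cholesterol synthesis enzymes in each BMDM library, from Acat2 at the start of the pathway to Dhcr7. Circles are saringosterol replicates 1 and 2 (red) and vehicle replicates 1 to 3 (grey), the open diamond is saringosterol replicate 3, and bars are group means; replicate 3 lies between the other saringosterol libraries and vehicle for all 18 genes.

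The genes that control this pathway fell less evenly. Of 8 tested genes of SREBP control and lipoprotein uptake, 2 were called lower (Srebf2 and Stard4), and 4 without replicate 3, where Insig1 was among those that joined them; none was called higher either way. Srebf2 had 69.4, 67.9 and 96.5 CPM with saringosterol and 134, 137 and 146 CPM with vehicle (log2 change of -0.84, adjusted p = 0.0024). Insig1, which retains the SREBP precursors, had 30.9, 31.0 and 48.3 CPM with saringosterol, against 57.9, 54.3 and 68.3 CPM with vehicle (log2 change of -0.71, adjusted p = 0.06; -0.96, adjusted p = 4.4e-09 without replicate 3). Stard4, a sterol carrier, had a log2 change of -1.09 with an adjusted p of 0.048. Its call was lost without saringosterol replicate 1 and without any 1 of the GW or vehicle libraries, where its log2 change lay between -1.17 and -1.01 and its adjusted p between 0.072 and 0.15. The genes of the SREBP chaperone and proteases (Scap, Mbtps1 and Mbtps2) and Insig2 were not called, with log2 changes between -0.06 and 0.07.

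The fatty acid genes split. Of 15 tested, 5 were called higher (Srebf1, Acaca, Mid1ip1, Scd1 and Scd2) and 3 lower (Acss2, Fads1 and Fads2); without replicate 3 the counts were 6 and 4. Srebf1 had 151, 163 and 193 CPM with saringosterol and 91.8, 88.7 and 98.1 CPM with vehicle (log2 change of 0.86, adjusted p = 9.5e-07). Scd1, a desaturase that makes oleate, had 59.7, 49.5 and 66.4 CPM with saringosterol, against 21.4, 15.4 and 21.6 CPM with vehicle (log2 change of 1.58, adjusted p = 0.0011). Scd2 had 870, 861 and 1190 CPM with saringosterol, against 451, 406 and 476 CPM with vehicle (log2 change of 1.13, adjusted p = 0.00094). The sequences of the Scd genes are alike, and reads may be split between them. Fasn, the fatty acid synthase, had 73.0, 84.0 and 131 CPM with saringosterol and 59.7, 58.7 and 77.3 CPM with vehicle. Those groups overlapped, and the log2 change of 0.56 did not pass (adjusted p = 0.21). Acss2, which activates acetate, had 11.6, 11 and 13.5 CPM with saringosterol, against 17.4, 17.1 and 19.6 CPM with vehicle (log2 change of -0.58, adjusted p = 0.001). Only 1 of the 3 lower calls remained without vehicle replicate 1, vehicle replicate 3, GW replicate 3 or saringosterol replicate 2.

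Genes of other lipid steps changed little. Over all genes, 5.53% were called higher and 5.12% lower, and a single call in one of these lists is near that share. Of 12 tested genes of sterol trafficking, esterification and oxysterol enzymes, 1 was called higher and 1 lower, and 2 and 1 without replicate 3. Gramd1b, which carries sterol to the endoplasmic reticulum, had 40.2, 39.9 and 50.1 CPM with saringosterol and 24.2, 27.3 and 24.3 CPM with vehicle (log2 change of 0.78, adjusted p = 8.2e-06). Cyp27a1, the sterol 27-hydroxylase, had 32.6, 29.6 and 26.6 CPM with saringosterol, against 40.2, 38.5 and 43.2 CPM with vehicle (log2 change of -0.46, adjusted p = 0.001). Among 11 lipid droplet and lipase genes, Plin2, a droplet coat protein, was called higher (log2 change of 0.23, adjusted p = 0.012; 0.23 and 0.067 without vehicle replicate 2), and Lipe and Dgat1 were called lower (-0.61 and -0.36); Dgat1 missed the threshold without replicate 3 (-0.29, adjusted p = 0.058), and without saringosterol replicate 2, vehicle replicate 1 or vehicle replicate 3 (-0.35 to -0.33, adjusted p of 0.056 to 0.074). Among 14 fatty acid oxidation and PPAR target genes, Hadhb and Cd36 were called higher (0.33 and 0.26) and Ucp2 lower (-0.43, adjusted p = 0.0005); without replicate 3, 3 were called higher and 1 lower. Cd36, a receptor of oxidised LDL, missed the threshold without saringosterol replicate 1 or 2, GW replicate 2, or vehicle replicate 1 or 2, with log2 changes of 0.19 to 0.30.

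Interferon-stimulated genes pointed in opposite directions in different saringosterol libraries. Their levels in replicates 1 and 2 were under all 3 vehicle libraries for all 25 genes, and replicate 3 was above all 5 other libraries for 24 of the 25. Over all genes tested these orders held for 19.5% and 21.3%. Replicate 3 was known beforehand to lie apart in interferon genes, so its place in this list is a description and no test. The 25 genes summed to 387, 447 and 1760 CPM in saringosterol replicates 1, 2 and 3, against 1090, 749 and 951 CPM in vehicle replicates 1, 2 and 3. The median log2 distance from the vehicle mean was -1.58, -1.10 and 0.78 in the 3 saringosterol libraries and 0.22, -0.32 and 0.05 in the 3 vehicle libraries. With all libraries, none of the 25 was called by edgeR in either direction (median log2 change of -0.11; 1 had an unadjusted p under 0.05, DESeq2 called 1 lower and limma-voom none). Without replicate 3, 24 were called lower (median -1.47), where 6.02% of all genes were. With any other single library left out, none was called lower. Because replicate 3 is left out for standing apart in these genes, calls without it describe replicates 1 and 2 and are no independent test.

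Isg15, a ubiquitin-like protein, had 5.05, 4.04 and 27.4 CPM with saringosterol, against 19.2, 12.5 and 16.7 CPM with vehicle. Its log2 change was -0.40 ± 0.74 with all libraries (adjusted p = 0.80) and -1.84 ± 0.19 without replicate 3 (adjusted p = 7.5e-07). Ifit1, which binds RNA with foreign ends, had 4.06, 4.48 and 29.5 CPM with saringosterol, against 27.6, 15.6 and 25.4 CPM with vehicle, and Ifit3, its partner, had 8.61, 8.17 and 73.4 CPM with saringosterol, against 62.7, 36.9 and 57.9 CPM with vehicle. Their log2 changes without replicate 3 were -2.42 (adjusted p = 0.0067) and -2.65 (adjusted p = 0.012). Irf7, a transcription factor that amplifies the interferon response, reached 186 CPM in replicate 3, beside 12.7 and 16.6 CPM in replicates 1 and 2 and 52.0, 28.5 and 45 CPM with vehicle. The 1 gene of the 25 not called without replicate 3 was Rsad2 (log2 change of -0.98, adjusted p = 0.059). Ifnb1, Ifna4 and Ifng, which encode interferons, were listed at 0 in all 6 libraries, and the 4 tested receptor genes were not called, with log2 changes between -0.03 and 0.16.

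Promoter windows of interferon-stimulated genes are shown because their levels set replicate 3 apart from replicates 1 and 2. The motif TTCNNTTTC, the core of the element bound by interferon regulatory factors, was searched on both strands. It was found in 11 of 18 genes with a matched window (61.1%), beside 9.76% of all genes with windows, which describes letters and not binding. The lines show Ifit1 (chr19:34640754-34640813, plus strand), Isg15 (chr4:156200863-156200922, minus strand), Oas3 (chr5:120777701-120777760, minus strand) and Bst2 (chr8:71537569-71537628, minus strand). Each holds more than 1 copy, and copies that overlap run together in the capitals. Oas3, which makes a second messenger on sensing RNA, had 7.25, 11.7 and 75.7 CPM with saringosterol and 40, 24.3 and 35.6 CPM with vehicle. Bst2, the tether of budding virus, had 63.1, 69.5 and 148 CPM with saringosterol, against 98.0, 74.8 and 83.8 CPM with vehicle.
Ifit1: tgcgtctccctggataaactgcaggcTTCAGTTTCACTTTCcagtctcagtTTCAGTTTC
Isg15: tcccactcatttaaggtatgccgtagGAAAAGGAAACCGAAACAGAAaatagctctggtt
Oas3: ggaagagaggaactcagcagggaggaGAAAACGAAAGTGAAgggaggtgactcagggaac
Bst2: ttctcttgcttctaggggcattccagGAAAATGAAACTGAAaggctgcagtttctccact

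The genes that differed most between replicate 3 and the mean of replicates 1 and 2, given as a description, included interferon-stimulated genes. Saa3, an acute phase protein, had 81.2 CPM in replicate 3 and 0.465 and 0.367 CPM in replicates 1 and 2, with 11.5, 0.439 and 4.81 CPM in the vehicle libraries. Ccl5, a chemokine for T cells, had 47.8 CPM beside 1.61 and 1.54 CPM, and Ly6e had 388 CPM beside 34.1 and 36.7 CPM. Vehicle libraries ranged from 1.67 to 10.9 CPM for Ccl5 and from 82.9 to 160 CPM for Ly6e. Ifi44, Irf7, Iigp1, Ifit2, Slfn1, Tgtp1 and Tgtp2 complete the 10 highest, at log2 differences of 3.22 to 3.83; Tgtp1 and Tgtp2 are near-identical copies whose reads cannot be told apart with certainty. The 10 genes lowest in replicate 3 differed less, by log2 differences of -0.92 to -1.4, and included B3gnt5 at 2.75 CPM beside 8.33 and 7.75 CPM, Smpd3 at 44.5 CPM beside 88.3 and 92.7 CPM, and the chemokine Cxcl2 at 8.44 CPM beside 19.2 and 13.7 CPM.

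The guanylate-binding and immunity-related GTPases, which attack vacuoles that hold microbes, followed the interferon-stimulated genes. None of 9 was called by edgeR with all libraries, at a median log2 change of -0.06, and all 9 were called lower without replicate 3 (median -1.17); with all libraries none of the 9 had an unadjusted p under 0.05 and neither DESeq2 nor limma-voom called any. Without replicate 3, 6.02% of all genes were called lower and 4.45% higher. Replicate 3 stands apart in these genes and in the class I genes below as well, so that calls without it are no independent test. Gbp5 had 1.05, 0.587 and 5.62 CPM with saringosterol and 4.37, 2.72 and 5.77 CPM with vehicle, and Gbp7 had 5.17, 5.65 and 29.8 CPM with saringosterol, against 20.4, 15.3 and 18.2 CPM with vehicle. Genes of MHC class I presentation did likewise at smaller size: none of 11 was called by edgeR with all libraries (median -0.04; 2 had an unadjusted p under 0.05, and DESeq2 called 1 in each direction and limma-voom 1 higher), and without replicate 3, 9 were called lower and Erap1, a peptide trimming enzyme, higher (median -0.46). Tapbp, which loads peptides, had 546, 508 and 743 CPM with saringosterol and 757, 720 and 795 CPM with vehicle (log2 change of -0.34, adjusted p = 0.17; -0.53, adjusted p = 1.1e-06 without replicate 3).

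MHC class II genes fell with and without replicate 3. Of 8 tested, 7 were called lower with all libraries and 8 without replicate 3, with median log2 changes of -0.61 and -0.72. The shares of all genes called lower were 5.12% and 6.02%. H2-Ab1 (ENSMUSG00000073421, chromosome 17 from 34257689 to 34269419), a beta chain of class II, had 495, 471 and 582 CPM with saringosterol, against 846, 717 and 797 CPM with vehicle. H2-Aa, its alpha chain partner, had 343, 335 and 428 CPM with saringosterol, against 621, 513 and 543 CPM with vehicle. The groups of both genes did not overlap, and their log2 changes were -0.61 ± 0.08 (adjusted p = 4.6e-05) and -0.60 ± 0.09 (adjusted p = 0.0011). H2-DMa and H2-DMb1, which exchange the peptides, had log2 changes of -0.70 and -0.64 (adjusted p = 4.1e-07 and 4.9e-05). Ciita, the factor that switches on class II genes, had 40, 34.3 and 46.0 CPM with saringosterol and 54.0, 53.6 and 58.8 CPM with vehicle (log2 change of -0.47, adjusted p = 0.002). Cd74, the invariant chain, was the 1 gene not called with all libraries, at 1920, 1880 and 2710 CPM with saringosterol, against 3480, 2830 and 3050 CPM with vehicle (log2 change of -0.52, adjusted p = 0.065; -0.72, adjusted p = 2.2e-08 without replicate 3). Every saringosterol library lay under every vehicle library for all 8 genes, beside 13.4% of all genes tested, and replicate 3 was the highest saringosterol library for all 8. Markers of dendritic cells, which are rich in class II, summed to 221 to 265 CPM with saringosterol and 288 to 362 CPM with vehicle. That sum was mostly Itgax, at 135 to 161 TPM with saringosterol and 164 to 213 TPM with vehicle, while no other marker passed 2.21 TPM. Of the 4 markers tested, 1 was called lower and none higher, with a median log2 change of 0.04 (0.37 without replicate 3). In every library 1 marker lay lower and 1 higher with saringosterol. Of these 7 markers, Flt3, Ccr7 and Clec9a were too low to be tested, and Flt3 was at most 0.307 CPM in any of the 6 libraries. The part of dendritic cells in the result was not tested.

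**Figure D3:**
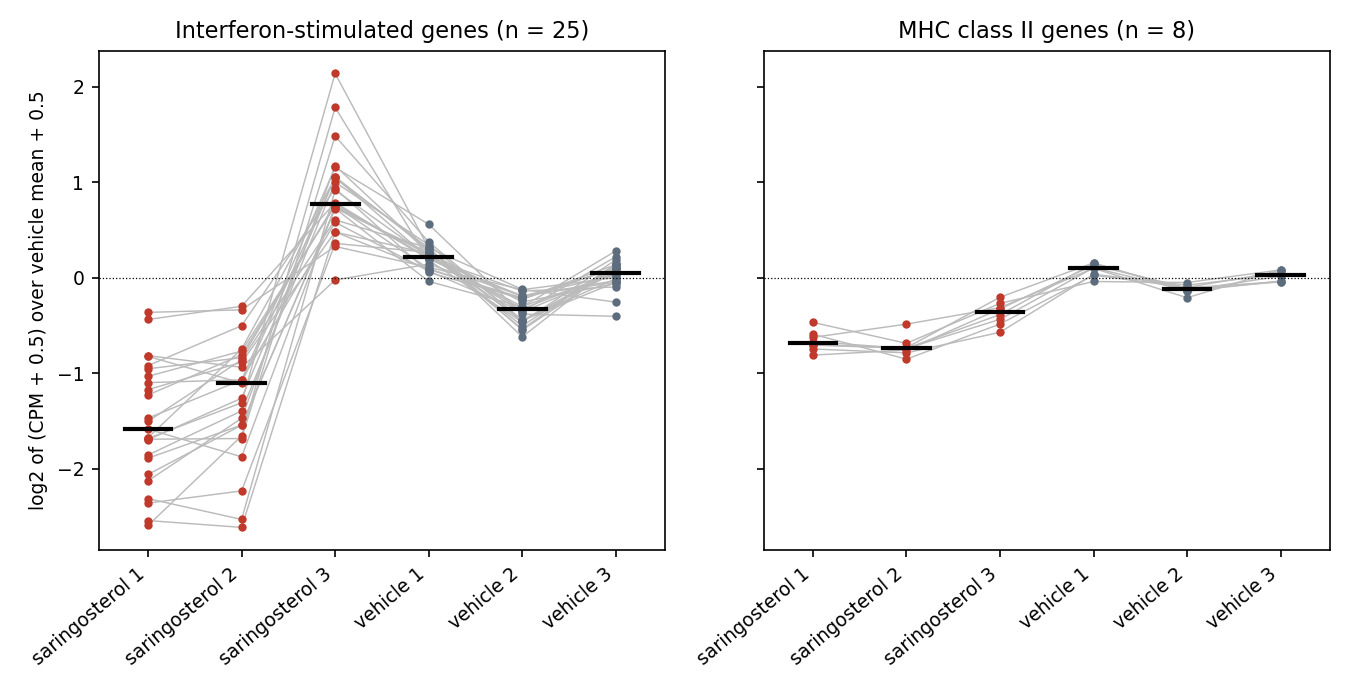
Log2 of CPM plus 0.5 over the vehicle mean plus 0.5 for 25 interferon-stimulated genes (left) and 8 MHC class II genes (right), in saringosterol replicates 1 to 3 (red) and vehicle replicates 1 to 3 (grey). Points are genes, grey lines join a gene across libraries and black bars are medians; the interferon median is -1.58, -1.10 and 0.78 in saringosterol replicates 1, 2 and 3, and the class II median is -0.68, -0.74 and -0.36.

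Inflammatory genes moved in both directions. Il1a, a cytokine released by damaged cells, was among the largest rises of all genes, at 5.27, 6.43 and 11.9 CPM with saringosterol and 1.43, 0.380 and 0.784 CPM with vehicle (log2 change of 3.16 ± 0.48, adjusted p = 0.0064). Without replicate 3 its log2 change was 2.73 (adjusted p = 4.5e-06). Il1b, the related cytokine, did not pass: it had 0.310, 0.342 and 5.23 CPM with saringosterol and 2.71, 2.22 and 1.51 CPM with vehicle (log2 change of -0.11, adjusted p = 0.96). Replicates 1 and 2 were under all vehicle values for Il1b and replicate 3 above them all, and without replicate 3 it was called lower (log2 change of -2.71, adjusted p = 1.1e-05). Il18bp, which neutralises interleukin-18, rose to 30.4, 32.5 and 62.0 CPM with saringosterol, against 10.8, 8.13 and 9.01 CPM with vehicle. Its log2 change was 2.16 (adjusted p = 0.0081) and 1.75 without replicate 3 (adjusted p = 2.1e-12). Of the 10 interleukin-1 family genes tested, Il1a and Il18bp were the 2 called higher and none was called lower; without replicate 3, 3 were called higher and Il1b lower.

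Of 8 cytokines and inflammatory enzymes tested, Osm, which encodes oncostatin M, was the 1 called, at 5.27, 3.20 and 5.32 CPM with saringosterol and 1.15, 1.93 and 2.16 CPM with vehicle (log2 change of 1.4, adjusted p = 0.00099). Tnf lay at 10.7, 10.1 and 8.07 CPM with saringosterol and 8.64, 10.4 and 8.98 CPM with vehicle, and these overlapped (log2 change of 0.05, adjusted p = 0.88). Acod1, which makes itaconate, had a log2 change of 0.69 with all libraries and -0.73 without replicate 3, neither of which passed (adjusted p = 0.70 and 0.40). Without replicate 3, 1 gene of the 8 was called lower beside 1 called higher. Il6, Il12b, Nos2 and Lif were too low to be tested.

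Among 17 chemokines and receptors, 5 were called higher (Ccl2, Ccl3, Ccl4, Ccl7 and Cxcl1) and Cx3cr1 lower. Ccl4, which attracts immune cells, had 37.2, 30.4 and 46.1 CPM with saringosterol, against 20.2, 17.1 and 14.5 CPM with vehicle (log2 change of 1.13, adjusted p = 0.0021). Ccl7 was low, at 0.837, 0.978 and 2.31 CPM with saringosterol, against 0.230, 0.0292 and 0.0560 CPM with vehicle; 2 of its vehicle values lay under the floor of 3 counts. Its log2 change was 3.63 (adjusted p = 0.00061), 3.03 without saringosterol replicate 3 and 4.92 without vehicle replicate 1. Ccl2, a monocyte attractant, had 2.29, 3.40 and 8.19 CPM with saringosterol, against 1.38, 1.05 and 1.37 CPM with vehicle (log2 change of 1.87, adjusted p = 0.025; 1.17, adjusted p = 0.006 without replicate 3). With vehicle replicate 1, 2 or 3 left out, Ccl2 missed the threshold, with adjusted p-values of 0.11, 0.11 and 0.078. Ccl3 missed it without vehicle replicate 2 (log2 change of 0.61, adjusted p = 0.06), and its log2 change was 0.64 with all libraries and 0.42 without saringosterol replicate 3. Cx3cr1, the fractalkine receptor, fell to 2.08, 3.84 and 4.04 CPM with saringosterol, against 9.50, 6.43 and 9.77 CPM with vehicle (log2 change of -1.36, adjusted p = 0.0038). The number called higher dropped to 3, 2 and 3 without vehicle replicate 1, 2 and 3, and without saringosterol replicate 3, 6 genes were called higher and 5 lower.

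Tlr4, the endotoxin receptor, and Ticam1, its adaptor, were the 2 genes called higher among 15 of endotoxin and nucleic acid sensing. Over all genes, 5.53% were called higher and 5.12% lower. Tlr4 had 112, 124 and 153 CPM with saringosterol, against 85.6, 85.8 and 90.0 CPM with vehicle (log2 change of 0.57, adjusted p = 0.01), and both calls were lost without vehicle replicate 1 (adjusted p = 0.065 for Tlr4 and 0.06 for Ticam1). That of Ticam1 was also lost without saringosterol replicate 2 or vehicle replicate 2 (adjusted p = 0.052 for both). Without saringosterol replicate 3, 5 of the 15 were called lower. Of 12 genes of NF-kappaB and its feedback, the inhibitor Tnfaip3 was called higher, at 89.1, 89.2 and 89.7 CPM with saringosterol, against 55.3, 56.0 and 60.9 CPM with vehicle (log2 change of 0.64, adjusted p = 1.4e-05), and Birc3 and Nfkb1 lower (-0.42 and -0.27). The call of Nfkb1 was lost without saringosterol replicate 3 (-0.23, adjusted p = 0.083), and without saringosterol replicate 2, vehicle replicate 1 or vehicle replicate 2 (-0.28 to -0.26).

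Few markers of alternative activation and receptors for dying cells were called, and in both directions. Of 11 alternative activation genes, Pparg was called higher (log2 change of 0.31, adjusted p = 0.002) and Clec10a, Mgl2 and Chil3 lower; without replicate 3, 2 were higher and 3 lower. Clec10a, a lectin for galactose, had 12.2, 13 and 15.4 CPM with saringosterol, against 23.9, 23.6 and 22.6 CPM with vehicle (log2 change of -0.79, adjusted p = 1.8e-05). Only 1 of the 3 lower calls remained without vehicle replicate 2 (Chil3 at -0.39 and Mgl2 at -0.93, adjusted p = 0.059 and 0.06), and Mgl2 was also lost without saringosterol replicate 2 or vehicle replicate 1. Arg1, Retnla and Ccl17 were too low to be tested. Of 17 scavenger and efferocytosis receptors, Havcr2 was called higher and Stab1, Scarb1 and Mfge8 lower. Without saringosterol replicate 3, 6 were called lower. Over all genes, 5.53% were called higher and 5.12% lower (6.02% lower without replicate 3). The 1 higher call in each of these 2 lists is thus near the share of all genes. Scarb1, the HDL receptor, had 119, 118 and 141 CPM with saringosterol and 160, 154 and 177 CPM with vehicle (log2 change of -0.38, adjusted p = 0.0025). Havcr2, which binds phosphatidylserine, missed the threshold without replicate 3 (log2 change of 0.57, adjusted p = 0.077), without saringosterol replicate 2 (0.74, adjusted p = 0.06) and without vehicle replicate 3 (0.64, adjusted p = 0.07). Mfge8 missed it without vehicle replicate 2 (-0.24, adjusted p = 0.051).

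Part of the amino acid response rose. Of 13 genes tested, 4 were called higher (Asns, Atf4, Phgdh and Trib3) and Cebpb lower, with a median log2 change of 0.46; without replicate 3 the counts were 6 and 1. The shares of all genes called higher were 5.53% with all libraries and 4.45% without replicate 3. Atf4, the transcription factor of the amino acid response, had 96.5, 87.7 and 99.0 CPM with saringosterol, against 65.9, 61.0 and 62.9 CPM with vehicle (log2 change of 0.58, adjusted p = 1.9e-05). Phgdh, the first enzyme of serine synthesis, had 6.26, 6.68 and 12.5 CPM with saringosterol, against 2.07, 1.58 and 2.80 CPM with vehicle. Its log2 change was 1.98 (adjusted p = 0.0032) and 1.58 without replicate 3 (adjusted p = 3.3e-05). Trib3 had 6.97, 7.58 and 10.7 CPM with saringosterol, against 5.29, 4.21 and 4.31 CPM with vehicle (log2 change of 0.87, adjusted p = 0.008), and without vehicle replicate 2 only 2 of the 4 were called higher. Cebpb missed the threshold without saringosterol replicate 2, vehicle replicate 1 or vehicle replicate 2 (-0.23 to -0.18). Of 11 unfolded protein response genes, Ddit3 was called higher (log2 change of 0.71, adjusted p = 0.042) and Herpud1 lower (-0.39, adjusted p = 0.0014). The Ddit3 call was lost without any 1 vehicle library and without GW replicate 1 or 3, where its adjusted p lay between 0.062 and 0.14, and its log2 change was 0.45 without saringosterol replicate 3. The chaperone genes of that list were not called, with log2 changes of 0.06 for both Hspa5 and Hsp90b1.

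Cell cycle genes were higher. Of 16 tested, 9 were called higher and none lower (median log2 change of 0.43), and 8 without replicate 3 (median 0.28). The shares of all genes called higher were 5.53% and 4.45%. Mcm2, a subunit of the replicative helicase, had 20.5, 26.7 and 28.3 CPM with saringosterol and 13, 16.1 and 15.7 CPM with vehicle (log2 change of 0.76, adjusted p = 0.00099). Rrm2, which makes deoxynucleotides, had 22, 29.7 and 32.1 CPM with saringosterol, against 19.3, 17.9 and 16.1 CPM with vehicle (log2 change of 0.66, adjusted p = 0.0027). Mki67 did not pass, at 28.2, 36.3 and 35.0 CPM with saringosterol, against 26.3, 30.9 and 27.4 CPM with vehicle (log2 change of 0.24, adjusted p = 0.12). Vehicle libraries decided part of the count, which dropped to 5 with vehicle replicate 1 left out and 4 with replicate 2 left out.

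Transcripts of the mitochondrial genome were lower. Of 13, 7 were called lower and none higher (median log2 change of -0.63), and 8 without replicate 3 (median -0.56). The shares of all genes called lower were 5.12% and 6.02%. The 13 genes lay, in every saringosterol library, under every vehicle library, as did 13.4% of all genes tested. Transcripts of the mitochondrial genome made up 0.444%, 0.394% and 0.358% of counts in saringosterol replicates 1, 2 and 3, against 0.625%, 0.583% and 0.512% in vehicle replicates 1, 2 and 3. The count of lower genes was 4 without vehicle replicate 1 and without saringosterol replicate 2. Of 13 NRF2 antioxidant targets, Nqo1, Prdx1 and Slc7a11 were called lower and none higher, and without replicate 3, 4 were called lower and 1 higher. Their median log2 distance from the vehicle mean was -0.07, -0.14 and -0.54 in saringosterol replicates 1, 2 and 3, against -0.13, 0.03 and 0.05 in vehicle replicates 1, 2 and 3. Replicate 2 differed little from vehicle replicate 1, and replicate 3 was the lowest of the 6. Nqo1, a quinone reductase, had 7.22, 6.02 and 5.98 CPM with saringosterol, against 11, 12.3 and 17.5 CPM with vehicle (log2 change of -1.09, adjusted p = 0.00017). Prdx1, a peroxidase, had 8440, 7860 and 6030 CPM with saringosterol, against 10500, 11300 and 11300 CPM with vehicle (log2 change of -0.57, adjusted p = 0.0023). Slc7a11, a cystine transporter, missed the threshold without saringosterol replicate 3, vehicle replicate 2 or vehicle replicate 3 (-0.35 to -0.26). Replicate 3 was the lowest saringosterol library for all 13 NRF2 targets, beside 36.6% of all genes tested.

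Glycolysis, lysosomal and immediate early genes changed in few members. Over all genes, 5.53% were called higher and 5.12% lower. Of 16 glycolysis genes, Hk3, Pfkp and Pgk1 were called higher and Slc2a1, the glucose transporter, lower (log2 change of -0.33, adjusted p = 0.0041). The 3 higher calls were all lost without replicate 3, and also without vehicle replicate 1 or vehicle replicate 2. Of 16 lysosomal genes, Gla and Ctsb were called higher (0.25 and 0.20), and without replicate 3, 2 were higher and 1 lower; Ctsb missed the threshold without saringosterol replicate 2 (0.22), vehicle replicate 1 (0.19) or vehicle replicate 2 (0.20). Of 11 immediate early genes, Jun and Dusp1 were called higher (0.32 and 0.59) and Jund and Fos lower (-0.38 and -0.25), with 2 higher and 3 lower without replicate 3; of these 4, Jun alone was called in all 9 fits that left out 1 library. Dusp1, Jund and Fos each missed the threshold without saringosterol replicate 2 (0.62, -0.38 and -0.19) and without vehicle replicate 1 (0.57, -0.36 and -0.22), and without vehicle replicate 2 or 3 in part.

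**Figure D4:**
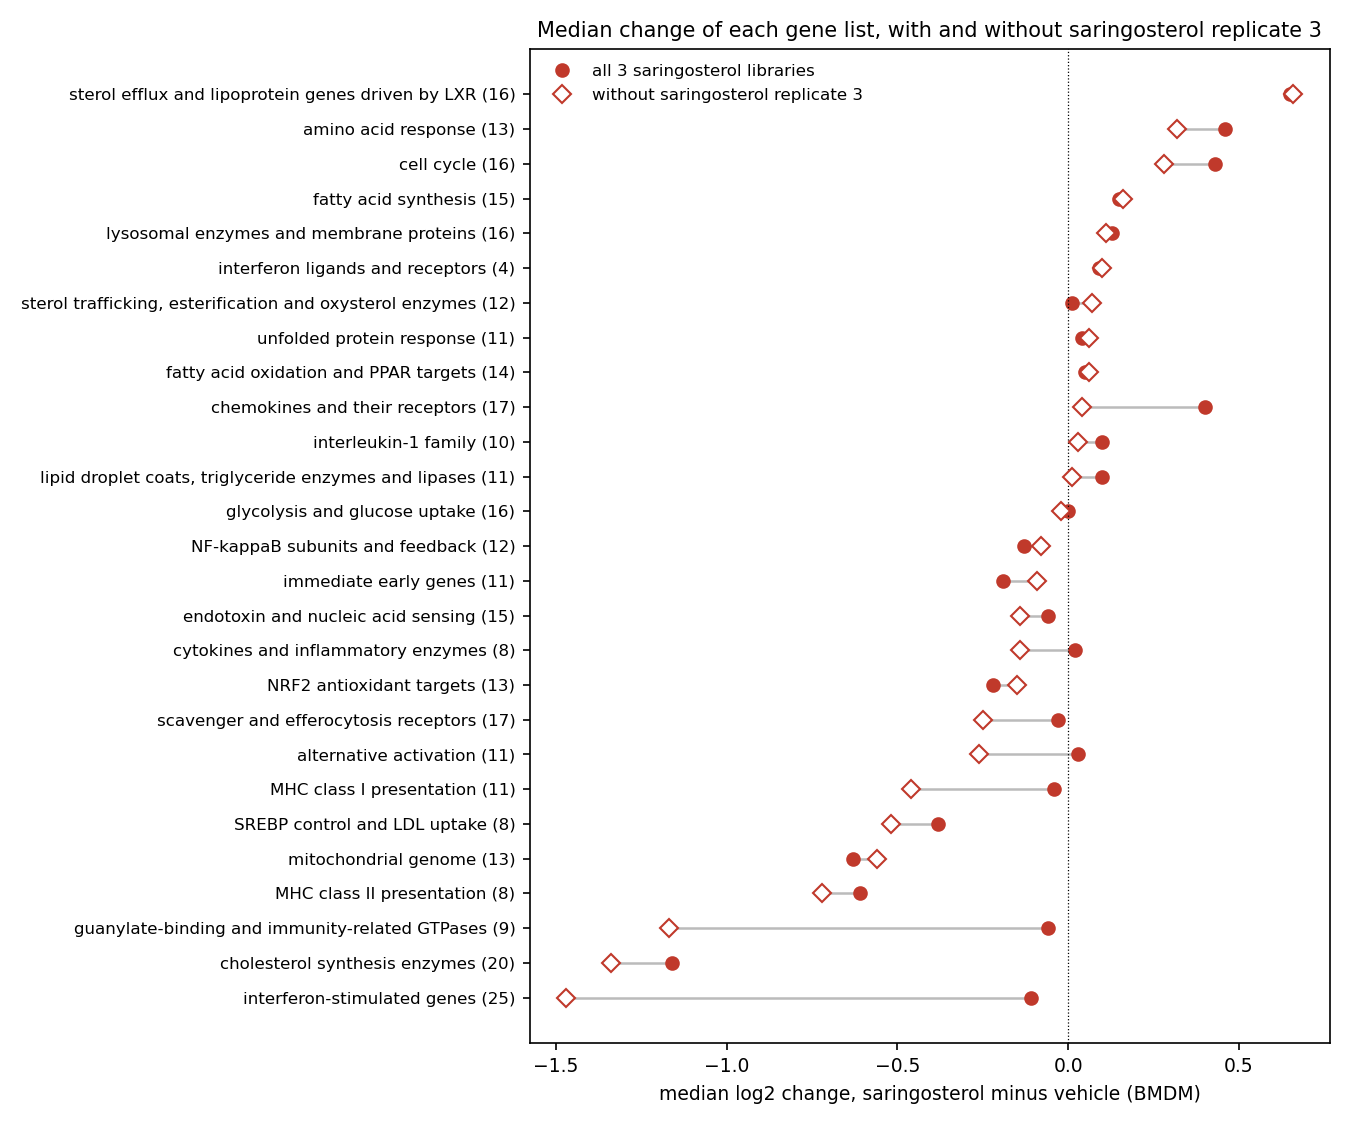
Median log2 change (saringosterol minus vehicle) of the tested members of 27 gene lists in BMDM, with the number of members in brackets. Filled circles use all 3 saringosterol libraries and open diamonds leave out replicate 3; the interferon-stimulated genes shift from a median of -0.11 with all libraries to -1.47 without it, and the LXR genes from 0.65 to 0.66.

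Most of the largest changes were those of genes at low counts. Among genes called both with all libraries and without replicate 3, Lbp, which hands endotoxin to its receptor, had the largest rise, at 3.01, 2.69 and 2.67 CPM with saringosterol and 0.204, 0 and 0.336 CPM with vehicle (log2 change of 3.91, adjusted p = 4.1e-05). Cd38, an enzyme that consumes NAD, had 8.95, 12 and 24.8 CPM with saringosterol, against 2.10, 1.52 and 1.99 CPM with vehicle (log2 change of 3.03, adjusted p = 0.0076; 2.49 without replicate 3). Dmpk, Bach2os and Gem, with log2 changes of 2.37, 2.36 and 1.79, joined Ccl7, Il1a, Il18bp, Phgdh and Ccl2 in the 10 largest rises. Bach2os is annotated as an opposite-strand transcript, and since the strand setting of the counting is not given, its reads cannot be assigned with certainty. The largest fall was that of Adgre4, an adhesion receptor of myeloid cells, to 0.960, 0.660 and 1.46 CPM with saringosterol, against 7.74, 4.91 and 8.26 CPM with vehicle (log2 change of -2.76, adjusted p = 1.8e-06). Slc6a4, the serotonin transporter, Mgst2, Tnfsf4 and Tgfb2 had log2 changes of -2.20, -2.06, -1.97 and -1.82, and Tnfsf4 missed the threshold without vehicle replicate 2. Ifit1bl1, a member of the Ifit family whose copies may share reads, had a log2 change of -2.23 with all libraries and -3.15 without replicate 3, and missed the threshold without vehicle replicate 1. Gm13502, Gm6781 and Gm8163, predicted genes with no name, were also among the 10.

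The smallest p-values belonged to more abundant genes. Rasgef1b, a guanine exchange factor, had 281, 288 and 262 CPM with saringosterol, against 128, 127 and 121 CPM with vehicle (log2 change of 1.14 ± 0.06, adjusted p = 1.6e-10). Eepd1, known as an LXR target that supports Abca1, had 138, 145 and 139 CPM with saringosterol, against 57.4, 57.7 and 65.4 CPM with vehicle (log2 change of 1.23, adjusted p = 2.1e-10). Fbxo32, a ubiquitin ligase subunit, had 61.1, 53.3 and 57.5 CPM with saringosterol, against 24.1, 24.9 and 24.8 CPM with vehicle (log2 change of 1.22). Besides Hmgcs1 and Fdft1, the falls with the smallest p were those of Hpgd, which inactivates prostaglandins, at 38.3, 39.9 and 43.2 CPM with saringosterol, against 94.4, 87.7 and 87.0 CPM with vehicle (log2 change of -1.15, adjusted p = 2e-09), Txnip (-0.69) and Igfbp4 (-0.67). With any 1 library left out, the log2 change of Rasgef1b lay between 1.12 and 1.18 and that of Hpgd between -1.20 and -1.10.

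Cholesterol synthesis and fatty acid synthesis genes, and part of the efflux genes, were lower with saringosterol than with GW. Both were tested against each other at their own doses, 10 µM and 1 µM, so that the difference is one between these treatments and not between compounds at a matched dose. Of 15416 genes, 705 were higher (4.57%) and 733 lower (4.75%) with saringosterol than with GW; without saringosterol replicate 3, 604 were higher (3.81%) and 803 lower (5.06%) of 15873. This comparison shares the saringosterol libraries with the one against vehicle. Its calls, 1438 in all, numbered 887 without GW replicate 3. Of the cholesterol synthesis enzymes, 20 of 20 were lower with saringosterol (median log2 difference of -1.43), and of the fatty acid genes, 14 of 15; both counts were the same without replicate 3. Of 12 sterol trafficking genes 3 were lower and none higher, and of 11 lipid droplet and lipase genes 2 were lower and 2 higher, with median log2 differences of 0 and -0.07. Scd1 averaged 58.6 ± 8.49 CPM with saringosterol and 389 ± 32.6 CPM with GW (SD, n = 3 each; log2 difference of -2.73, adjusted p = 6.6e-05). Abca1 averaged 1570 ± 67.0 CPM with saringosterol and 2170 ± 173 CPM with GW (log2 difference of -0.46, adjusted p = 0.00025), and 9 of 16 LXR efflux genes were lower with saringosterol and none higher (9 and 1 without replicate 3). All 8 MHC class II genes were lower with saringosterol than with GW, and 15 of 16 cell cycle genes were higher, with the same counts without replicate 3. The 25 interferon-stimulated genes summed to 387, 447 and 1760 CPM with saringosterol and to 460 to 515 CPM with GW. With all libraries none of them was called higher or lower with saringosterol than with GW, at a median log2 difference of 0.65. Without replicate 3, 5 were called lower and none higher, at a median of -0.32.

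Microglia had the same dose, time and treatment medium, and its LXR genes are set beside those of BMDM first. The difference of the responses (BMDM minus microglia) was tested in 1 fit over 18 libraries. Of 16965 genes, 253 had a higher response in BMDM (1.49%) and 132 a lower one (0.778%). These 385 calls numbered 204 without vehicle microglia replicate 3, 211 without saringosterol microglia replicate 3, 236 without vehicle BMDM replicate 2, 663 without vehicle BMDM replicate 3 and 677 without saringosterol BMDM replicate 1. The median difference of 16 LXR efflux genes was 0.07 on the log2 scale. The difference was -0.18 ± 0.08 for Abca1 and -0.02 ± 0.07 for Abcg1 (SE; adjusted p = 0.25 and 0.91), which does not show that the responses are alike. Of 20 cholesterol synthesis enzymes, 17 were called lower in microglia, where 2.42% of all genes were called lower and 1.74% higher, and 1 differed between the cell types: Hmgcs1, with log2 changes of -1.18 in BMDM and -0.84 in microglia (adjusted p of the difference 0.047). Without saringosterol BMDM replicate 3, 6 enzymes had a lower response in BMDM, where 0.992% of all genes had a lower response and 1.37% a higher one.

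Some amino acid response and MHC class II genes differed in response between the cell types. Of 13 amino acid response genes, 6 responded more in BMDM (Aars, Asns, Atf4, Phgdh, Slc7a5 and Trib3) and 7 without replicate 3. Atf4 had log2 changes of 0.58 in BMDM and -0.15 in microglia (difference of 0.72, adjusted p = 1.2e-05), and Trib3 had 0.87 and -0.56 (difference of 1.43, adjusted p = 0.0017). Of 8 class II genes, 4 had a lower response in BMDM: H2-Aa, H2-Ab1, H2-DMa and H2-DMb1. The count was 6 without replicate 3. The starting levels differed, as the 8 genes summed to 4830 to 5880 CPM in vehicle BMDM and 517 to 543 CPM in vehicle microglia. The part of that difference in level was not tested. H2-Ab1 had log2 changes of -0.61 in BMDM and 0.06 in microglia (difference of -0.67, adjusted p = 0.005). Of 11 unfolded protein response genes, 5 had a lower response in BMDM and Ddit3 a higher one, and without replicate 3, 3 had a lower one and Ddit3 a higher one. Plin2 had the smallest p of the named genes, with log2 changes of 0.23 in BMDM and -0.76 in microglia (difference of 0.98 ± 0.06, adjusted p = 2.7e-11). Ccl7 had log2 changes of 3.64 in BMDM and 0.14 in microglia (difference of 3.50, adjusted p = 0.0064; 2.88 without saringosterol BMDM replicate 3), and its BMDM change rests on vehicle values near the floor.

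**Figure D5:**
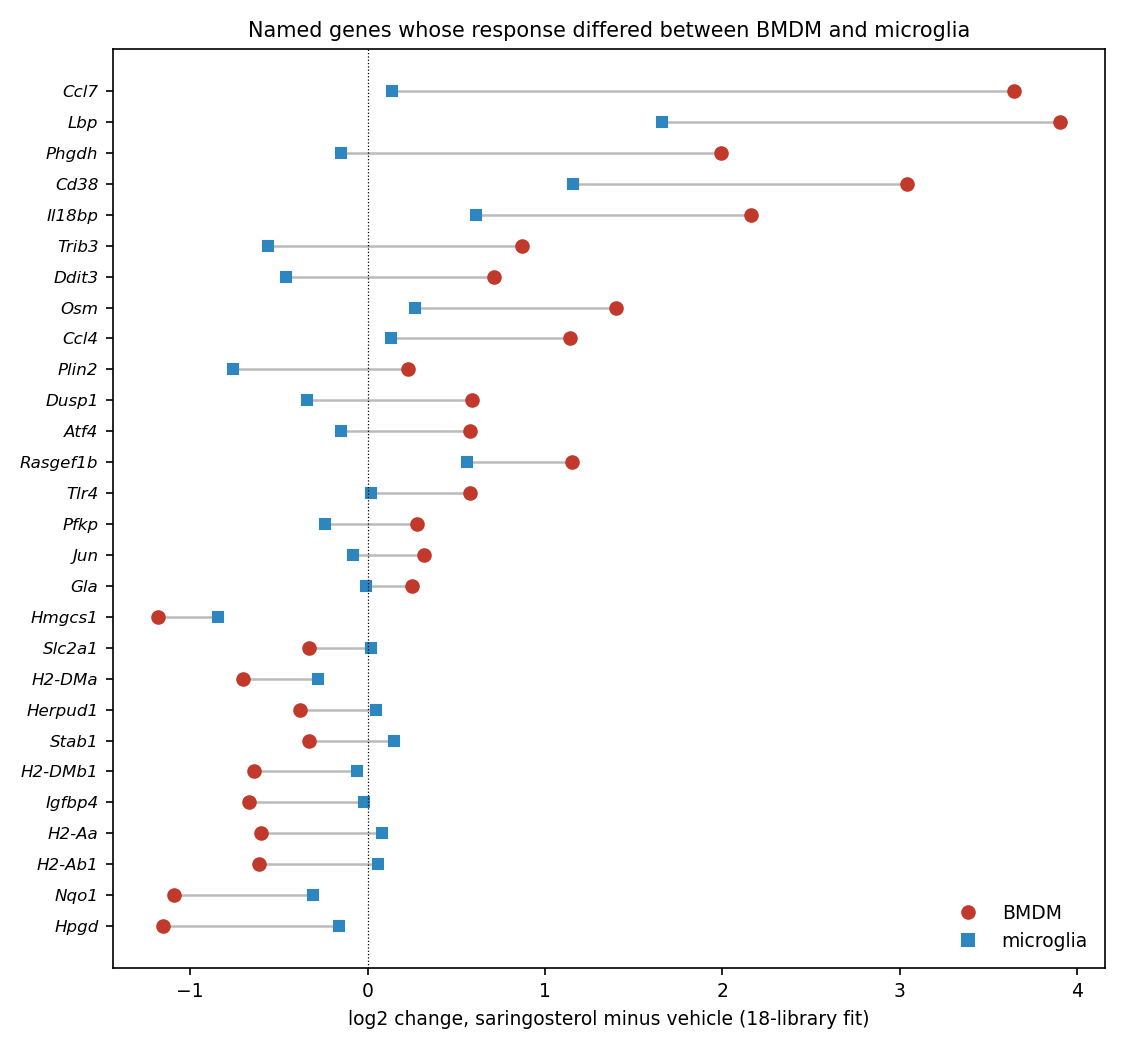
Log2 change (saringosterol minus vehicle) in BMDM (red circles) and microglia (blue squares) for the 28 named genes whose response differed between the cell types in the fit over 18 libraries, ordered by the difference. Ccl7, at 3.64 in BMDM and 0.14 in microglia, is at the top, and Hpgd, at -1.15 and -0.16, at the bottom.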

How the data were processed

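RNA of all 27 cultures was primed with oligo-dT and amplified with a low-input SMARTer kit, per the labels' protocols. Reads were aligned to GRCm38 with STAR 2.5.1a and counted with featureCounts 1.4.6-p5 of Subread, per the submitters' processing notes. How strand and reads with several positions were handled, and which annotation release was used, is not given in the sources used here. The authors deposited raw counts per gene with CPM, FPKM and TPM values; FPKM was not used. The deposited CPM values are each count scaled by the library's total (largest deviation from the counts 5.1e-11), and sums over gene lists use them. Levels of single genes in BMDM were computed here as CPM on TMM-scaled totals, which lie -2.21% to 2.44% from the deposited values. The deposited TPM values serve only for levels between genes. Totals of the 6 libraries were 32203386 to 40878942 counts.

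Groups were taken from the labels. The counts of 9 BMDM libraries (saringosterol, GW, vehicle) were fitted with edgeR 4.0.16 in R 4.3.3 (TMM scaling, filterByExpr, robust quasi-likelihood F test, Benjamini-Hochberg adjusted p under 0.05), again without saringosterol replicate 3, and over 18 BMDM and microglia libraries for the difference in response. Log2 changes come from these fits. Only the fit of 9 libraries, for saringosterol against vehicle, was also run on simulated counts. Those counts had the same spread for every gene and no library that stood apart, unlike the real ones. The other fits were not simulated. Alternatives were DESeq2 1.42.0, limma-voom 3.58.1, RLE scaling, other count filters, a 2-fold limit, the 6 libraries alone, a replicate block and leaving out each library. All 476 genes of 27 pathway and 14 marker lists were found.

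The libraries and the lists were chosen with earlier results of these data known. Genes were named by rule: the 10 largest rises and falls called with and without replicate 3 at a group mean of at least 1 CPM, the 5 smallest p in each direction, up to 4 members of each list by p, a few fixed members of the lists, and the 10 genes each way that set replicate 3 apart at 5 CPM or more. Any other gene was named after its values were seen. Promoter windows are from RefSeq, matched by symbol. A few genes of the lists count in the totals but are not reported here by name.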

Additional observations from a re-analysis of the deposited data

Results flagged for a closer look

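The response to saringosterol (saringosterol minus vehicle) differed between BMDM and microglia for 28 of the named genes, by the test of the difference itself in the edgeR fit over 18 libraries. The values are differences of log2 changes, BMDM minus microglia, and all 28 have an adjusted p under 0.05.

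Among lipid genes, the difference was 0.98 for the droplet coat Plin2 (adjusted p = 2.7e-11) and -0.34 for Hmgcs1 (adjusted p = 0.047). Among the genes with the smallest p or the largest changes in BMDM, it was -0.98 for Hpgd, 0.59 for Rasgef1b, -0.65 for Igfbp4, 2.25 for Lbp, 3.50 for Ccl7 (2.88 without saringosterol BMDM replicate 3) and 1.88 for Cd38 (adjusted p = 0.045).

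Among stress and amino acid genes, the difference was 0.72 for Atf4, 1.43 for Trib3, 2.13 for Phgdh, 1.17 for Ddit3, -0.43 for Herpud1 and -0.78 for Nqo1. Atf4, Trib3, Phgdh and Ddit3 had positive log2 changes in BMDM (0.58, 0.87, 1.99 and 0.71) and negative ones in microglia (-0.15, -0.56, -0.15 and -0.46). A negative value is not in itself a called fall: that of Phgdh in microglia was not called (edgeR adjusted p = 0.83). Among immediate early genes it was 0.41 for Jun and 0.92 for Dusp1.

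Among immune genes, the difference was -0.67 for both H2-Aa and H2-Ab1, -0.57 for H2-DMb1, -0.42 for H2-DMa, 0.56 for Tlr4, 1.13 for Osm, 1.00 for Ccl4, 1.55 for Il18bp and -0.48 for the scavenger receptor Stab1. Among the remaining genes it was 0.52 for Pfkp, -0.35 for Slc2a1 and 0.26 for the lysosomal enzyme Gla. Without saringosterol BMDM replicate 3, Gla missed the threshold (0.21, adjusted p = 0.081), and the other 27 kept their call and direction. Their sizes moved both ways. Among those that shrank without it were Cd38 (1.34), Il18bp (1.15), Phgdh (1.74) and Ddit3 (0.92). Among those that grew were Dusp1 (1.06) and H2-Aa (-0.79).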

How the results depend on the processing

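Called genes numbered 853 higher and 790 lower with saringosterol. They numbered 1103 and 953 with DESeq2, 759 and 777 with limma-voom, 882 and 775 with RLE scaling, 1095 and 972 with no filter on low counts, 819 and 862 with a mean of at least 1 CPM, 680 and 615 with the 6 libraries alone, and 55 and 120 with a 2-fold limit. Leaving out 1 library at a time gave 403 to 952 higher and 443 to 956 lower, 887 to 1475 calls against GW (1438 with all), and 204 to 677 differences between BMDM and microglia (385 with all). DESeq2 gave 784 such differences and no filter gave 775; the cause was not tested. Interferon-stimulated genes called lower numbered 1 with DESeq2, 1 with no filter and 0 to 24 with 1 library left out.

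Of single named genes, 14 values changed sign, none of them called with all libraries. With limma-voom Irgm1 gave -0.03 and Irf7 -0.20. With 1 library left out at a time, and the lowest value that without saringosterol replicate 3 unless said, log2 changes ranged from -0.55 to 0.39 for Irgm1, -1.51 to 1.28 for Irf7, -0.73 to 1.47 for Acod1, -0.06 to 0.20 for Casp1, -2.71 to 0.40 for Il1b, -0.76 to 0.15 for Igtp and -1.84 to 0.03 for Isg15. Tnf ranged from -0.02 (without saringosterol replicate 1) to 0.16 and Ifngr1 from -0.02 (without vehicle replicate 1) to 0.08. Of 98 named genes called, 69 kept their call with any 1 library left out.

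The labels give groups the same replicate numbers, but same-numbered saringosterol and vehicle libraries deviated together with correlations of only -0.07, 0.04 and 0.04, so the numbers were not taken as pairs. A replicate block gave 944 higher and 836 lower genes, 1515 calls against GW and 394 differences between cell types; LXR genes called higher numbered 12, cholesterol enzymes lower 19, interferon-stimulated genes lower 0 and MHC class II genes lower 8.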
